A study of Mus musculus with 12 samples.

Results

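Whole lungs of LPS-treated neonatal mice were compared between 2 genotypes, Adm+/- and WT, in 6 of the 12 bulk RNA sequencing libraries of the series. The members are the 3 Adm+/- LPS libraries (replicates 1, 2 and 12) and the 3 WT LPS libraries (replicates 9, 10 and 11), chosen by the genotype and treatment in their labels, and the measured genes are the 21950 protein-coding genes of a table of 52550 annotated genes. Adm+/- mice carried 1 disrupted and 1 intact copy of the adrenomedullin gene in every cell of the body, and WT mice were Adm+/+. The disrupted allele was made on a 129/SvEv background and then backcrossed to C57BL/6J, the strain of both groups. All 6 mice had received 6 mg/kg of Escherichia coli lipopolysaccharide (LPS) by intraperitoneal injection on 3 consecutive days, and lungs were collected on postnatal day 5, at 6 h from the final injection. Mice of the same genotypes given PBS, 3 of each, are cited only for background levels and for the test of whether the genotype difference depended on LPS. The replicate numbers are library numbers and link no Adm+/- mouse to a WT mouse.

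Adrenomedullin is a small vasodilator peptide made by endothelial cells and many other cells, and it acts through the calcitonin receptor-like receptor Calcrl paired with a Ramp accessory protein. It stabilises the endothelial barrier, promotes growth of blood and lymphatic vessels, and restrains inflammatory signalling in injured lung. LPS is sensed by macrophages, endothelium and epithelium through Tlr4 with Cd14, which activates NF-kappa B and the interferon factors and, through secreted cytokines, the STAT factors. The NF-kappa B response includes chemokines that draw neutrophils, adhesion molecules that capture them, and its own inhibitors. The comparison therefore asks how a lung with 1 intact Adm copy differs from a WT lung under the same endotoxin.

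The libraries held between 28244617 and 38062873 counts, of which 84.3 to 87.6% fell on protein-coding genes. Pearson correlations of log2 CPM (counts scaled to library size) were 0.975 to 0.992 between libraries of the same genotype. Between genotypes they were 0.954 to 0.978, so the ranges overlapped, and no pair of libraries agreed within sampling noise. The first principal component, with 38.7% of the variance, placed the Adm+/- LPS libraries between 43.1 and 88.9 and the WT LPS libraries between -128.8 and -18.4. The WT LPS libraries lay further apart from each other: the median SD of a gene's log2 CPM was 0.165 among WT and 0.116 among Adm+/- libraries. WT LPS replicate 11 carried male transcripts, with 80.8 CPM of the Y-linked Ddx3y and 4.40 CPM of Xist, whereas the other 5 libraries had 980.0 to 1304 CPM of Xist and at most 0.212 CPM of Ddx3y. Sex therefore differed within the WT group.

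RNA of tissues other than lung parenchyma is given before the results on lung cells. Summed over 26 skeletal muscle genes, which encode sarcomere and calcium-handling proteins of body muscle, the 3 Adm+/- LPS libraries held 125.5, 92.3 and 99.5 CPM. The same sum was 2625 CPM in WT LPS replicate 9, 2931 CPM in replicate 10 and 1235 CPM in replicate 11. All WT LPS libraries were thus above all Adm+/- LPS libraries, and the 6 PBS libraries, at 105.4 to 160.7 CPM, lay beside the Adm+/- LPS libraries. Summed over 30 genes of squamous epithelium, the layered lining found in oesophagus and skin, the Adm+/- LPS libraries held 152.2, 100.4 and 101.0 CPM. WT LPS replicates 9 and 11 held 4014 and 2056 CPM, and replicate 10 held 98.7 CPM, close to the Adm+/- LPS libraries, so that these sums overlapped between the groups. Neural and glial genes summed to 61.4 to 66.6 CPM in Adm+/- LPS and to 82.4 to 133.7 CPM in WT LPS, without overlap, and the 9 tested had a median log2 fold change of -0.79 with no call by edgeR or limma-voom, 6 at an unadjusted p under 0.05 and 4 lower by DESeq2. Without WT LPS replicate 9 edgeR called 4 of 12 lower, with a median of -1.73. All 8 tested brown fat genes were below 0 (median -0.69), and their sums overlapped, at 29.9 to 34.9 CPM against 33.97 to 45.8 CPM. The part of these tissues in each result below was not tested unless a value is given, and in these 6 libraries their muscle content and the genotype cannot be told apart.

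**Figure D1:**
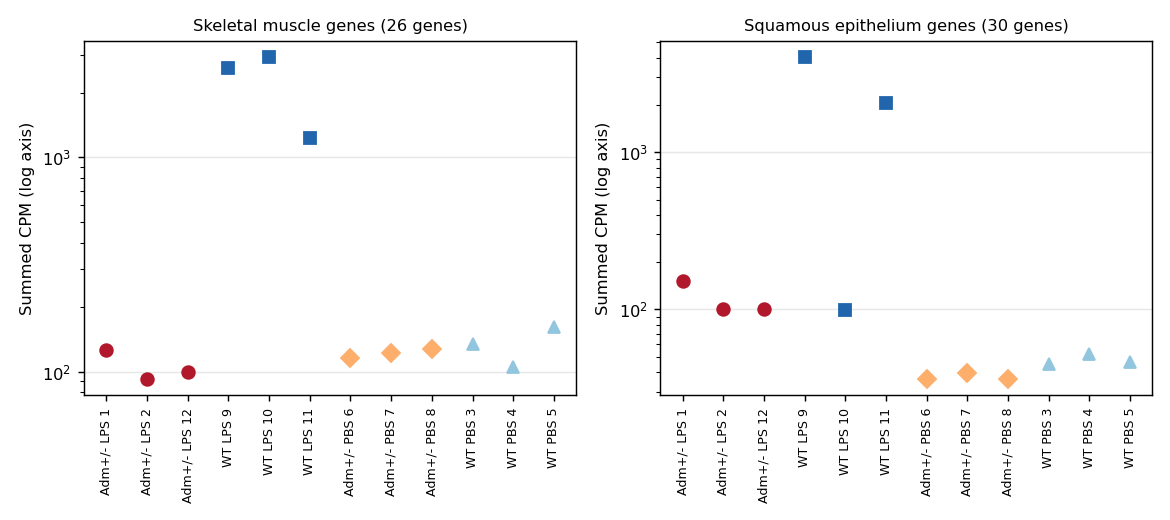
Summed CPM of the 26 skeletal muscle genes (left) and the 30 squamous epithelium genes (right) in each of the 12 libraries, on log axes; each point is 1 mouse, red circles Adm+/- LPS, blue squares WT LPS, light symbols PBS. The 3 WT LPS libraries stand above all others for muscle, and WT LPS replicates 9 and 11 for squamous epithelium.

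Adm itself was low in every lung. It was measured at 3.72, 6.23 and 3.88 CPM in the Adm+/- LPS libraries and at 7.74, 8.11 and 4.45 CPM in the WT LPS libraries. The groups overlapped, because Adm+/- LPS replicate 2 lay above WT LPS replicate 11. The fitted log2 fold change was -0.56 (SE 0.29) and did not pass the test (adjusted p = 0.35, edgeR quasi-likelihood F-test with Benjamini-Hochberg adjustment over the 15690 genes tested, used for every adjusted p below unless another tool is named). At PBS it was 2.87 to 4.58 CPM in Adm+/- lungs and 3.96 to 7.09 CPM in WT lungs. The gene lies on chromosome 7 at chr7:110627661-110629820 (mm10, + strand) and is overlapped on the other strand by Gm28863, so that reads of the pair are separated only if the counting used strand, which is not given in the sources used here.

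Of 10 genes of the adrenomedullin system 7 were tested. No member was called by edgeR or limma-voom, against 1.56% of all genes by edgeR, while 2 had an unadjusted p under 0.05, DESeq2 called 2 higher, and 1 was called lower by edgeR without WT LPS replicate 10. The median change of the 7 was -0.14 on the log2 scale, against -0.01 over all genes tested, and Adm2, Calcb and Calcr were too low to test. It was -0.25 without Adm+/- LPS replicate 1 and -0.07 without WT LPS replicate 11. Calcrl, the receptor, was at 642.3, 551.4 and 582.0 CPM in Adm+/- LPS and at 703.7, 608.1 and 707.2 CPM in WT LPS, a log2 fold change of -0.19 (adjusted p = 0.34). Ramp2, the partner that makes it an adrenomedullin receptor, gave -0.17 (adjusted p = 0.51). Ackr3, a scavenger receptor that removes adrenomedullin as well as Cxcl12, was at 83.0, 112.2 and 81.6 CPM against 66.1, 62.1 and 49.2 CPM. Every Adm+/- library was above every WT library (log2 fold change 0.64, SE 0.16, adjusted p = 0.094). Ramp3, the other adrenomedullin partner of Calcrl, was at 12.2, 14.2 and 12.4 CPM against 8.66, 10.2 and 5.56 CPM, again without overlap and short of the threshold (log2 fold change 0.66, adjusted p = 0.17).

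Across the transcriptome 245 of 15690 tested genes (1.56%) passed the threshold, which asks for an adjusted p under 0.05 together with a log2 fold change beyond 0.5 in size. Of these, 37 (0.236%) were higher and 208 (1.33%) were lower in Adm+/- LPS than in WT LPS lungs. An unadjusted p under 0.05 was reached by 2943 genes (18.8%), and 48.3% of all tested genes had a fitted change above 0. The count rested strongly on single libraries. It was 31 without Adm+/- LPS replicate 12, 59 without replicate 1 and 65 without replicate 2, and it was 615 without WT LPS replicate 9, 747 without replicate 10 and 224 without replicate 11. Calls in all 6 of these fits as well as in the full one numbered 30. Except for Trim34b all 30 were lower in Adm+/- LPS, and 8 of them are on the skeletal muscle list of 26 genes. The muscle genes Klhl41, Klhl31 and Myom3 are among the 30 but not on that list. DESeq2 called 945 genes, 273 higher and 672 lower, including all 245, and limma-voom called 30 higher and 155 lower. EdgeR called 227 higher and 388 lower without WT LPS replicate 9, 130 and 617 without replicate 10, and 45 and 179 without replicate 11. Without Adm+/- LPS replicate 1, 2 or 12 it called 1, 3 or 1 higher and 58, 62 or 30 lower. These totals and the 18.8% are the background of the list counts from the same fits.

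The lower genes were led by skeletal muscle. Of 24 tested members of the muscle list 20 were lower, against 1.33% of all genes tested, none was higher, and the median log2 fold change was -5.50. Those counts include members that passed the filter on low counts through the WT libraries alone, and among the 16 members with at least 10 counts in every LPS library 14 were lower. By limma-voom 14 of the 24 were lower, and by edgeR 13 were lower without Adm+/- LPS replicate 1, 13 without replicate 2 and 8 without replicate 12. Neb, the giant template protein of the thin filament, was at 22.3, 16.1 and 20.4 CPM in Adm+/- LPS and at 243.2, 291.7 and 142.2 CPM in WT LPS. The groups lay far apart, and the log2 fold change was -3.52 (SE 0.28, adjusted p = 0.0025). Myh8, the perinatal myosin heavy chain, was at 7.45, 2.24 and 2.75 CPM against 590.9, 684.6 and 238.0 CPM (log2 fold change -6.92). Ryr1, the calcium release channel of muscle, was at 1.56, 0.955 and 1.66 CPM against 62.6, 86.2 and 42.3 CPM (log2 fold change -5.50). For each of these 3 genes WT LPS replicate 11 had the lowest WT value, as it had for the summed list.

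Other muscle genes with the smallest p were Mybpc1, a myosin-binding protein (log2 fold change -7.14), Mylpf, the fast regulatory light chain (-6.13), Myl1 (-5.87), Atp2a1, the calcium pump of the sarcoplasmic reticulum (-5.20), Myom3 of the sarcomere M-band (-4.10), and the kelch proteins Klhl41 (-3.43) and Klhl31 (-2.96). Myh3, the embryonic myosin heavy chain, had the largest fitted fall among genes named by the rule, at 7, 5 and 7 counts in Adm+/- LPS and 862, 4645 and 4060 counts in WT LPS (log2 fold change -9.02). Its lowest WT library was replicate 9, unlike Neb, Myh8 and Ryr1. Pax7, the transcription factor of muscle satellite cells, had 1, 0 and 0 counts in Adm+/- LPS and 31, 83 and 77 counts in WT LPS. At 3 counts or fewer in every Adm+/- library, as for 13 of the 208 lower genes, no fold is given. Myosin heavy chain genes are similar in sequence, and reads shared between them may have been split or dropped in the counting.

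Outside the fixed lists of skeletal, cardiac and smooth muscle and of squamous epithelium stood 186 of the 208 lower genes, which were not sorted further by role. The lists are short, and the 186 still include muscle genes such as Klhl41, Klhl31 and Myom3, so 186 is not a count of genes outside muscle. Hmcn2, a large extracellular matrix protein of the hemicentin family, had the smallest p of all genes tested. It was at 6.63, 7.68 and 6.04 CPM in Adm+/- LPS and at 57.0, 85.5 and 90.6 CPM in WT LPS. Here WT LPS replicate 9 was the lowest of its group and replicate 11 the highest, whereas replicate 11 was the lowest for the muscle list. The log2 fold change was -3.52 (SE 0.20, adjusted p = 0.0020), and in PBS lungs the gene was at 6.58 to 20.6 CPM. Cilp, a matrix protein that binds growth factors, was at 1.19, 0.623 and 1.06 CPM against 11.9, 17.2 and 13.5 CPM (log2 fold change -3.87).

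Igf2, the imprinted fetal growth factor, was at 96.4, 102.6 and 114.3 CPM in Adm+/- LPS and at 481.7, 387.1 and 338.2 CPM in WT LPS. The lowest WT library was well above the highest Adm+/- library, and the log2 fold change was -1.95 (SE 0.14, adjusted p = 0.0021). PBS lungs of both genotypes had 82.7 to 162.3 CPM, so it was WT LPS that stood apart from the other 9 libraries. Lum, the collagen-binding proteoglycan lumican, was at 1.68, 5.69 and 5.47 CPM against 29.2, 19.1 and 28.4 CPM (log2 fold change -2.58), and Dcn, decorin of the same family, at 27.4, 34.2 and 35.4 CPM against 92.2, 57.0 and 84.1 CPM (-1.27). Lum and Dcn were the 2 called lower by edgeR of 36 lung fibroblast and matrix genes, against 1.33% of all genes, and the median was 0.02. None of the 36 was called higher by edgeR, DESeq2 or limma-voom, and DESeq2 called 4 lower. No member was called without Adm+/- LPS replicate 2 or 12, without WT LPS replicate 11 or in the fit of all 12 libraries, and 1 was called lower without Adm+/- LPS replicate 1. Without WT LPS replicate 9 or 10 edgeR called 3 lower, of 388 or 617 lower in all. Lum and Dcn also lie highest in the libraries with squamous RNA, WT LPS replicates 9 and 11.

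Cd163, the haemoglobin scavenger receptor of tissue macrophages, was at 2.35, 2.87 and 2.44 CPM in Adm+/- LPS and at 8.14, 5.54 and 8.54 CPM in WT LPS (log2 fold change -1.54, adjusted p = 0.014). Hpgd, the enzyme that inactivates prostaglandin E2, was at 73.9, 53.5 and 73.5 CPM against 120.2, 122.5 and 163.6 CPM (-1.02, adjusted p = 0.030). Neither gene overlapped between groups. In PBS lungs Hpgd was at 68.1 to 195.0 CPM, and Cd163 at 2.82 to 6.36 CPM. Arpp21, a cAMP-regulated phosphoprotein of thymocytes and neurons, was at 0.298, 0.332 and 0.318 CPM against 4.58, 7.90 and 5.44 CPM (-4.22). The summed thymocyte list was 78.8 to 80.5 CPM against 85.3 to 86.6 CPM. That sum includes Arpp21 itself, and the 7 thymocyte genes tested had a median of -0.03.

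The intermediate filament Des of all muscle types (-0.93) and the calcium pump regulator Sln (-2.09) were lower, as were the glycolytic enzymes Pfkm, the muscle form of phosphofructokinase (-1.17), and Tpi1, triosephosphate isomerase (-0.62). They were the genes called lower by edgeR among 21 smooth muscle, 12 cardiac and 26 glycolysis genes tested, at 1, 1 and 2 against 1.33% of all genes. DESeq2 called 4, 2 and 2 lower and 1 glycolysis gene higher. EdgeR called none of these lists lower when any 1 of the Adm+/- LPS libraries was left out, and it called 4 glycolysis genes higher without WT LPS replicate 9 and 1 cardiac gene higher without replicate 10. Without replicate 9 it also called 4 cardiac and 3 smooth muscle genes lower, of 388 lower in all.

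The group that stood apart from the rest differed between the lower and the higher genes. Of the 208 lower genes 158 (76%) had all 3 WT LPS libraries above all 9 other libraries of the series, a pattern seen in 3.05% of all genes tested. A smaller number, 47 (22.6%), had all 3 Adm+/- LPS libraries below the 9 others, against 5.18% of all genes. Of the 37 higher genes 30 (81.1%) had the Adm+/- LPS libraries above the 9 others, against 6.63% of all genes, and 4 had the WT LPS libraries below the 9 others. The LPS libraries entered both the call and this count, so the shares describe the genes and test nothing.

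Of the 37 higher genes, those with the smallest p are described first, and then the calls within the gene lists. Ptgs2, the inducible cyclooxygenase, was at 11.2, 14.4 and 10.6 CPM in Adm+/- LPS and at 5.56, 4.55 and 4.61 CPM in WT LPS. Each Adm+/- library was above each WT library, with a log2 fold change of 1.29 (SE 0.17, adjusted p = 0.013). Ptger4, a prostaglandin E2 receptor coupled to cAMP, was at 35.4, 39.7 and 36.01 CPM against 20.2, 23.4 and 18.0 CPM (0.85, adjusted p = 0.015). Prostaglandin genes formed no list here, and their other members were not counted.

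Dll4, the Notch ligand of arterial and tip cells, was at 125.3, 124.6 and 117.8 CPM in Adm+/- LPS and at 79.4, 81.8 and 89.4 CPM in WT LPS (log2 fold change 0.55, adjusted p = 0.013). PBS lungs had 102.7 to 163.3 CPM, so here the WT LPS libraries were the low ones. Aplnr, the apelin receptor of endothelium, was at 188.2, 207.7 and 164.3 CPM against 101.4, 110.0 and 84.7 CPM (0.92, adjusted p = 0.014). Rasip1, an endothelial protein needed for vessel lumen formation, was at 156.8, 155.4 and 154.4 CPM against 101.3, 103.7 and 81.0 CPM (0.71, adjusted p = 0.017). No WT LPS value of these 3 genes reached an Adm+/- LPS value. S100a16 and Ppp1r16b, which the study names as endothelial markers, went the other way. Their log2 fold changes were -0.42 to -0.23 and -0.925 to -0.47 in the fits without 1 library. Of 37 vascular endothelial genes on the list, however, Aplnr was the only one called higher by edgeR and Hpgd the only one called lower, against 0.236% and 1.33% of all genes tested, and the median log2 fold change was 0.17. DESeq2 called 3 higher and 2 lower, and edgeR called 3 and 3 without WT LPS replicate 9, 3 and 1 without replicate 10, and none when any 1 of the Adm+/- LPS libraries was left out. The median was 0.08 without Adm+/- LPS replicate 1.

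Inhbb, a subunit of activin B, was at 136.4, 140.2 and 120.6 CPM in Adm+/- LPS and at 52.2, 26.1 and 28.5 CPM in WT LPS, a log2 fold change of 1.89 (adjusted p = 0.014). All PBS lungs were between 13.5 and 38.7 CPM. Rgs16, which shortens G protein signals, had a log2 fold change of 1.10, Adamts4, a protease of matrix proteoglycans, 1.29, the ubiquitin ligase March3 0.87 and Disp2 of the Dispatched family 1.06. Among 58 growth factor and developmental genes, Fgf2 (0.52) and the Ras pathway inhibitor Spry4 (0.75) were called higher by edgeR and Igf2 lower, against 0.236% and 1.33% of all genes, with a list median of -0.18. DESeq2 called 2 higher and 6 lower. Without WT LPS replicate 9 or 10 edgeR called 3 or 5 lower, and when replicate 11 or any 1 Adm+/- LPS library was left out it called none higher. The median was -0.05 without WT LPS replicate 11. Fgf23, the phosphate-regulating hormone, was at 81, 53 and 38 counts against 15, 6 and 4 counts (log2 fold change 2.85, adjusted p = 0.029), and Slc26a4, the anion exchanger pendrin of airway epithelium, at 21.3, 19.97 and 19.1 CPM against 3.53, 4.84 and 0.755 CPM (2.72, adjusted p = 0.047). Among higher calls without overlap that averaged 1 CPM or more, the 2 genes had the largest rises after Trim34b.

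**Figure D2:**
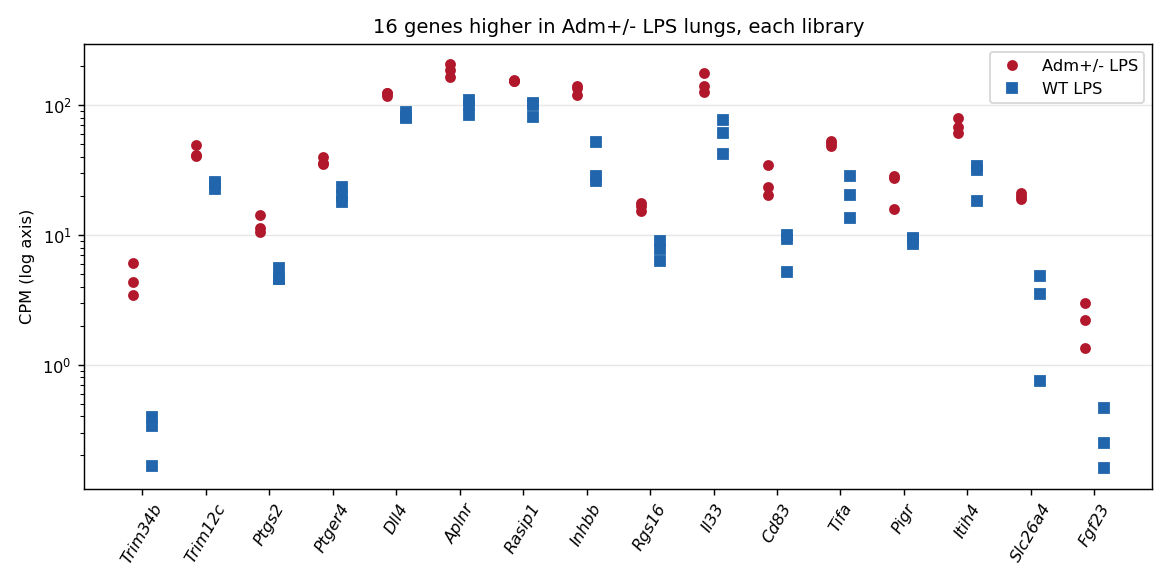
CPM on a log axis of 16 of the 37 genes higher in Adm+/- LPS, 1 point per library, red circles Adm+/- LPS and blue squares WT LPS. The groups do not overlap for any of the 16 genes, and the gap is widest for Trim34b, whose log2 fold change was 3.91.

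Immune mediators among the higher genes were Il33, Cd83, Tifa and Ier3. Il33, an alarmin of type II pneumocytes and endothelium, was at 179.1, 140.4 and 126.0 CPM in Adm+/- LPS and at 60.8, 76.6 and 42.3 CPM in WT LPS. The lowest Adm+/- library was thus well above the highest WT library, with a log2 fold change of 1.31 (SE 0.22, adjusted p = 0.033). Cd83, a marker of activated dendritic cells, was at 20.4, 34.5 and 23.5 CPM against 9.28, 10.1 and 5.17 CPM (1.67). Tifa, an adaptor that links sensing of bacterial sugars to NF-kappa B, was at 48.9, 51.0 and 52.7 CPM against 28.5, 20.3 and 13.5 CPM (1.29, adjusted p = 0.048). Its Adm+/- values were close together and its WT values spread more than 2-fold. Ier3, an early response gene, had a log2 fold change of 0.78.

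Of 24 acute phase and mucosal defence genes 3 were higher and none lower by edgeR, against 0.236% and 1.33% of all genes tested. DESeq2 called 9 of them higher, of 273 in all, and limma-voom 1, of 30 in all. EdgeR called none without Adm+/- LPS replicate 1 or 12, 1 without replicate 2 and 1 in the fit of all 12 libraries. It called 6 higher without WT LPS replicate 9, of 227 in all. Pigr, which carries IgA across epithelium, was at 27.5, 16.03 and 28.6 CPM against 9.52, 9.31 and 8.46 CPM (log2 fold change 1.40, adjusted p = 0.026). Itih4, an inter-alpha-trypsin inhibitor heavy chain, was at 80.1, 67.9 and 61.6 CPM against 34.2, 31.5 and 18.2 CPM (1.32), and Hpx, the haem carrier hemopexin, at 6.37, 7.10 and 5.05 CPM against 3.23, 3.10 and 2.74 CPM (1.03). Mat1a, the S-adenosylmethionine synthase typical of liver, was higher as well, at 26.1, 28.0 and 20.7 CPM against 11.5, 11.5 and 6.52 CPM (1.34, adjusted p = 0.037), and was the only call among 13 methionine cycle genes, against 0.236% of all genes called higher. The list had no call when any 1 of the Adm+/- LPS libraries was left out. The summed liver list, led by albumin, was 40.9 to 59.9 CPM in Adm+/- LPS and 43.2 to 104.4 CPM in WT LPS.

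The Trim genes were singled out by position after their values were seen. Trim34b, a member of the antiviral TRIM family at chr7:104329471-104336909 (mm10, + strand), 6.3 Mb from Adm, was at 117, 147 and 97 counts in Adm+/- LPS and 11, 4 and 10 counts in WT LPS. It had the largest rise of the protein-coding genes called, a log2 fold change of 3.91 (SE 0.36, adjusted p = 0.0038), and in the fits without 1 library it ranged from 3.65 to 4.12. In PBS lungs it had 39, 103 and 68 counts in Adm+/- mice, 3 and 2 counts in WT replicates 3 and 5, and 77 counts in the library labelled WT PBS replicate 4. Its neighbour Trim12c, at chr7:104338754-104353362, was at 40.4, 49.5 and 41.1 CPM against 24.6, 25.6 and 22.6 CPM (0.85, adjusted p = 0.013). The closely related Trim12a (-0.52), Trim5 (-0.78) and Trim34a (0.00) of the same cluster did not pass, and reads shared by these near-identical genes make the values of each uncertain. Within 10 Mb of Adm, 6 of 146 tested genes (4.11%) passed the threshold, against 1.56% of all genes tested, 3 higher (Trim34b, Trim12c and Hpx) and 3 lower.

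**Figure D3:**
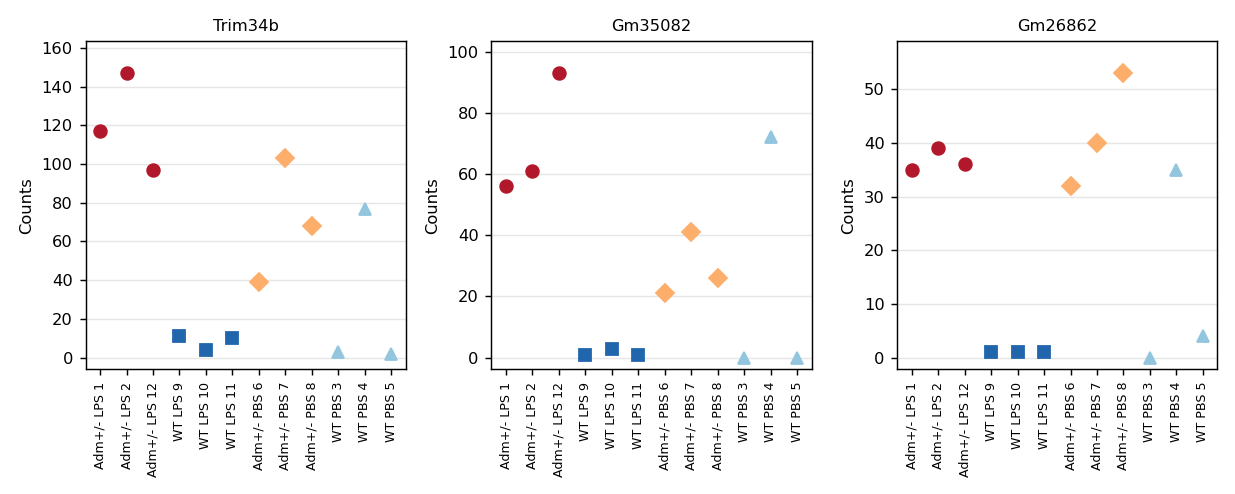
Counts per library (linear axes) of Trim34b and of the non-coding genes Gm35082 and Gm26862, all on chromosome 7, in the 12 libraries; colours and symbols give the 4 groups. All 6 Adm+/- libraries have 21 counts or more of each gene, the WT LPS libraries have 11 or fewer, and the library labelled WT PBS replicate 4 lies with the Adm+/- libraries.

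Of 35 genes for NF-kappa B subunits, its inhibitors and TNF signalling none was called by edgeR at a background of 1.56%, and none by limma-voom. An unadjusted p under 0.05 was reached by 22 of them, against 18.8% of all genes. DESeq2 called 7 of them higher, of 273 genes in all. A total of 34 of the 35 had a fitted change above 0, against 48.3% of all genes tested, and the median log2 fold change was 0.43. Adm+/- LPS lay wholly above WT LPS for 24 of them, against 11.8% of all genes. Their summed CPM was 3851, 4094 and 3767 in Adm+/- LPS and 3367, 2671 and 1870 in WT LPS. The Adm+/- lungs were alike, and among the WT lungs replicate 9 was highest and the male replicate 11 lowest, nearest to the PBS lungs at 1367 to 1731. Without WT LPS replicate 9 the list had 8 genes called higher, of 227 in all, and a median of 0.62. Without replicate 11 it had 3, of 45 in all, and a median of 0.30.

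Members of that pathway differed mainly in the WT lungs. Nfkbia, the NF-kappa B inhibitor I kappa B alpha and itself a target, was at 392.8, 407.2 and 380.8 CPM in Adm+/- LPS and at 333.0, 227.1 and 104.4 CPM in WT LPS (log2 fold change 0.83, adjusted p = 0.26). Nfkb1, a subunit, was at 307.8, 339.0 and 298.3 CPM against 275.5, 257.2 and 199.1 CPM (0.37, adjusted p = 0.18). Both had groups without overlap, and in both the spread of the WT lungs was wide. Tnfrsf9, the co-stimulatory receptor 4-1BB, was at 36.3, 41.4 and 37.8 CPM against 12.1, 16.1 and 1.43 CPM (1.96, adjusted p = 0.17). Tnf itself was at 13.4, 12.3 and 11.7 CPM against 18.0, 10.3 and 5.32 CPM, overlapping, and the log2 fold change was 0.15 (adjusted p = 0.87).

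Cxcl1, a chemokine that attracts neutrophils, was at 10.2, 18.2 and 15.3 CPM in Adm+/- LPS and at 6.02, 1.82 and 0.556 CPM in WT LPS, a log2 fold change of 2.34 (SE 0.67, adjusted p = 0.13). Cxcl2 was at 35.3, 47.2 and 30.01 CPM against 15.4, 6.29 and 2.19 CPM (2.22, adjusted p = 0.10). Cxcl3, chosen after its values were seen, was at 7.97, 7.27 and 3.78 CPM against 2.46, 0.745 and 0.159 CPM (2.44, adjusted p = 0.13). All 3 ligands of the receptor Cxcr2 were without overlap, and none passed the threshold. Of the 9 neutrophil-attracting chemokines on the list 5 were above 0 and 4 below, against 48.3% of all genes above 0, and 4 lay wholly higher, against 11.8% of all genes. The median was 0.37. None was called by edgeR or limma-voom, 5 had an unadjusted p under 0.05, and DESeq2 called 1 higher. Without WT LPS replicate 9 edgeR called 3 higher and without replicate 11 it called 1. The median was 0.22 without Adm+/- LPS replicate 1, and 1.03 for the 8 genes with at least 1 CPM in 3 libraries.

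The promoter windows of the 3 chemokines and of Tifa are shown because they carry the kappa B letters (GGGA, any base, then TTTCC), searched on both strands, which were found in 66 of 11995 tested genes with a RefSeq window (0.55%) and in 135 of 32851 windows of all genes (0.411%). Each window runs from 250 bases before to 50 after a transcript start in RefSeq (GRCm38.p6), on the + strand for these 4, and the capitals mark the kappa B letters, which lie at base -71 from the start in Cxcl1, -97 in Cxcl2, -73 in Cxcl3 and +34 in Tifa. Tifa has another RefSeq window, chr3:127789622-127789921, without the letters, which is not shown.
Cxcl1, chr5:90890995-90891294: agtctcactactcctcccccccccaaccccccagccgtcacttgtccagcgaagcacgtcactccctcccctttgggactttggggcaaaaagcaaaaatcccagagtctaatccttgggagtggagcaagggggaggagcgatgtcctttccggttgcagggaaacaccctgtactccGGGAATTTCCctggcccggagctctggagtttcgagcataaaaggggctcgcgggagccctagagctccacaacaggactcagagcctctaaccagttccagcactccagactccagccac
Cxcl2, chr5:90903649-90903948: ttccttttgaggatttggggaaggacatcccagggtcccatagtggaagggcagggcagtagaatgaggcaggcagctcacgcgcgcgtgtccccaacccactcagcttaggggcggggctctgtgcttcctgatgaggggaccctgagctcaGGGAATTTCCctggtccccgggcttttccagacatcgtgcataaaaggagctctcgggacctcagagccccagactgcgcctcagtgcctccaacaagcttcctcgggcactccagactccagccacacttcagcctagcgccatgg
Cxcl3, chr5:90785851-90786150: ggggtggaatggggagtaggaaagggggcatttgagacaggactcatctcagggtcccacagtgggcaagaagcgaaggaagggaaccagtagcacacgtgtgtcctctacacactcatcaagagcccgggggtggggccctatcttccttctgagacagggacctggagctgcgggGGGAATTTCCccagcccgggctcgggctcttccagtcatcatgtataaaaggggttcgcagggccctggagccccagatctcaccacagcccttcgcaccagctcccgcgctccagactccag
Tifa, chr3:127790407-127790706: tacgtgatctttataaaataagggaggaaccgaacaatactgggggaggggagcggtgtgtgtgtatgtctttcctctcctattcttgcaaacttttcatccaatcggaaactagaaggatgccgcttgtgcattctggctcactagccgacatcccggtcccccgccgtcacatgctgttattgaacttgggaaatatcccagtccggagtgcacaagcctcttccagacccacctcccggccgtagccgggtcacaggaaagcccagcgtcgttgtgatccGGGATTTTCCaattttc
Among the genes past the threshold the letters were rare. Of 26 higher genes with a window Tifa alone held them (3.85%), and of 155 lower genes none did. The STAT letters TTCNNNGAA, searched in the same way and able to share bases with the kappa B letters, were found in windows of 3 of the 26 higher genes (11.5%, Fgf23, Itih4 and Pigr), in 13 of the 155 lower genes (8.39%) and in 8.42% of all tested genes with a window. A match says only that the letters are present.

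Leukocyte adhesion genes went both ways. Of 14 genes 7 were above 0 and 7 below, with a median of 0.03, and 5 lay wholly higher and 2 wholly lower, against 11.8% and 12.8% of all genes. None was called by edgeR or limma-voom, 7 had an unadjusted p under 0.05, and DESeq2 called 3 higher. EdgeR called 2 higher without WT LPS replicate 9, 1 without replicate 11 and 1 in the fit of all 12 libraries. Icam1, the endothelial ligand of leukocyte integrins, was at 988.8, 963.8 and 916.6 CPM in Adm+/- LPS and at 634.6, 475.4 and 246.7 CPM in WT LPS (log2 fold change 1.08, adjusted p = 0.12). Il1b was at 67.5, 83.7 and 81.3 CPM against 60.3, 38.1 and 20.98 CPM (0.96, adjusted p = 0.18). Icam1 and Il1b did not overlap between groups. Il6, chosen after its values were seen, was at 21, 37 and 23 counts against 8, 5 and 2 counts (2.48, adjusted p = 0.057). Of its family and receptors 10 of 16 were above 0, 4 lay wholly higher and 2 wholly lower, the median was 0.29, and none was called by edgeR or limma-voom, with 5 at an unadjusted p under 0.05 and 3 higher by DESeq2. EdgeR called 1 higher with all annotated genes and without WT LPS replicate 9 or 11, and 1 lower in the fit of all 12 libraries, and the family median was 0.14 without Adm+/- LPS replicate 1 and 0.19 without WT LPS replicate 11. The monocyte chemokines Ccl2 (0.86, adjusted p = 0.36) and Ccl3 (0.77, adjusted p = 0.49) overlapped, since WT LPS replicate 9, at 8.33 and 11.3 CPM, lay above the lowest Adm+/- LPS libraries, at 7.34 and 9.18 CPM. Of 16 CC chemokines tested 15 were above 0 and the median was 0.49. None was called by edgeR or limma-voom, 5 had an unadjusted p under 0.05, DESeq2 called 2 higher, and the edgeR fit of all 12 libraries called 1. EdgeR called 1 higher without WT LPS replicate 9, with a median of 0.78, and 2 without replicate 10, and without replicate 11 the median was 0.31.

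Stat3, the factor downstream of interleukin-6, was at 538.3, 530.5 and 512.2 CPM in Adm+/- LPS and at 448.6, 409.0 and 280.5 CPM in WT LPS, without overlap (log2 fold change 0.47, adjusted p = 0.18). Among 20 STAT and SOCS genes 13 were above 0 and 7 below, and 11 lay wholly higher, against 11.8% of all genes, with a median of 0.44. None was called by edgeR or limma-voom, 11 had an unadjusted p under 0.05, and DESeq2 called 2 higher. EdgeR called 2 higher without WT LPS replicate 9 and 1 without replicate 10, and the median was 0.27 without replicate 11. As for Stat3, WT LPS replicate 9 was the highest and replicate 11 the lowest of the WT lungs for 2 abundant acute phase genes. Lcn2, the siderophore-binding lipocalin, was at 1625, 1176 and 1263 CPM against 955.3, 623.4 and 322.7 CPM (1.10, adjusted p = 0.16), and Saa3, serum amyloid A, at 1565, 1318 and 1547 CPM against 1189, 928.8 and 312.6 CPM (0.87, adjusted p = 0.31). In the acute phase list 23 of 24 genes were above 0, against 48.3% of all genes, 15 lay wholly higher, against 11.8%, and the median was 0.81.

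Interferon-stimulated genes were highest in 1 lung. None of the 36 was called by edgeR or limma-voom, 18 had an unadjusted p under 0.05 and DESeq2 called 1 higher. All 36 were above 0, and the median log2 fold change was 1.03. The summed CPM was 1804, 4162 and 1820 in Adm+/- LPS and 1391, 1671 and 740.1 in WT LPS. Adm+/- LPS replicate 2 held more than the other libraries, and the remaining Adm+/- lungs were only slightly above WT LPS replicate 10. Without Adm+/- LPS replicate 2 the median was 0.41 and 31 of the 36 were above 0. Iigp1, an interferon-inducible GTPase, was at 158.5, 340.8 and 159.7 CPM against 93.4, 126.1 and 43.7 CPM (1.32, adjusted p = 0.17), and 10 of the 36 genes lay wholly higher, against 11.8% of all genes tested. A high sum also occurred without LPS, at 1836 CPM in Adm+/- PBS replicate 7, whereas the other PBS lungs had 548.5 to 1030 CPM.

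**Figure D4:**
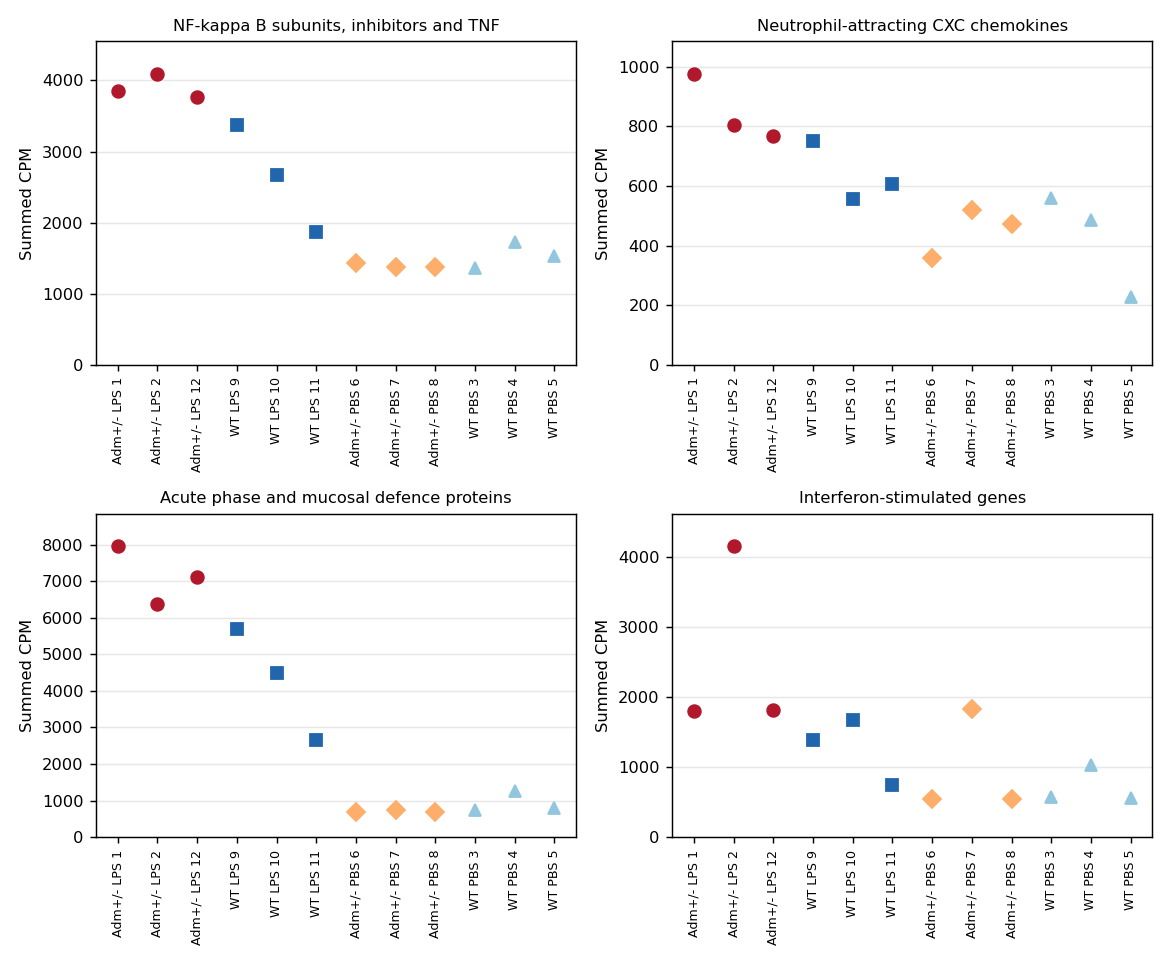
Summed CPM per library of 4 inflammatory gene lists on linear axes from 0; 1 point per mouse, colours and symbols give the 4 groups. The 3 Adm+/- LPS lungs lie above the 3 WT LPS lungs in each panel, WT LPS replicate 11 lies lowest of the LPS lungs for NF-kappa B, acute phase and interferon genes, and Adm+/- LPS replicate 2 stands out for interferon-stimulated genes at 4162.

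In whole lung RNA, fewer cells of a type and less RNA per cell cannot be told apart. Of 26 neutrophil genes none was called by edgeR or limma-voom, 6 had an unadjusted p under 0.05, DESeq2 called 3 lower, and the median log2 fold change was -0.16, with summed levels of 3544 to 3977 CPM in Adm+/- LPS and 2862 to 4993 CPM in WT LPS. Without WT LPS replicate 9 the median turned to 0.08 and edgeR called 4 higher. Mmp9, the gelatinase stored by neutrophils, was at 80.6, 53.9 and 89.9 CPM against 147.8, 87.8 and 142.6 CPM (-0.75, adjusted p = 0.16). Of 25 monocyte and macrophage genes Cd163 was the 1 called lower by edgeR, against 1.33% of all genes, and DESeq2 called 2 lower. The call was lost when any 1 of the Adm+/- LPS libraries was left out. The median was -0.40 and 19 were below 0. Without WT LPS replicate 9 that median was -0.16 and 1 gene was called higher, and without replicate 10 the median was -0.60 and 2 were called lower. B lymphocyte genes had a median of -0.42, with 12 of 13 below 0. EdgeR and limma-voom called none of them, DESeq2 called 1 lower, 5 had an unadjusted p under 0.05, and the median was -0.25 without WT LPS replicate 9. T lymphocyte genes had a median of -0.03, which turned to 0.03 without Adm+/- LPS replicate 12 and to 0.05 without WT LPS replicate 11. The 14 tested natural killer and cytotoxic genes had a median of 0.23, which turned to -0.14 without Adm+/- LPS replicate 2 and to -0.01 without WT LPS replicate 11. Their list, 21 genes in all, summed to 112.8, 145.7 and 109.0 CPM in Adm+/- LPS and to 102.1, 101.2 and 87.4 CPM in WT LPS, without overlap. Ncr1, Ifng, Klra4, Klra8, Klre1, Klrg1 and Xcl1 were too low to test. No T or natural killer gene was called by edgeR, DESeq2 or limma-voom, and 1 and 2 had an unadjusted p under 0.05.

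Il33 was the 1 edgeR call among 28 type II pneumocyte genes, against 1.56% of all genes, and their median was 0.11. Of the 28, 19 were above 0, 7 lay wholly higher and 3 wholly lower, against 48.3%, 11.8% and 12.8% of all genes. DESeq2 called 2 higher and 3 lower, and edgeR called none when any 1 of the Adm+/- LPS libraries was left out. Lgi3, at 121.2, 113.1 and 123.6 CPM against 138.8, 173.7 and 199.1 CPM, and Myo5c, at 130.8, 107.2 and 131.0 CPM against 157.1, 161.4 and 211.6 CPM, both lay wholly lower with log2 fold changes of -0.51 and -0.52 and adjusted p of 0.097 and 0.11. Type I pneumocyte genes (18 tested, median 0.03) and airway genes (20 tested, median 0.07) had no call by edgeR or limma-voom, with 4 and 1 at an unadjusted p under 0.05, and DESeq2 called 1 airway gene lower. Leaving out WT LPS replicate 9 turned the medians to -0.01 and -0.05, and leaving out Adm+/- LPS replicate 12 turned the airway median to -0.08. Fgf10, the mesenchymal growth factor of lung branching, was at 13.3, 15.7 and 12.4 CPM against 16.6, 20.8 and 25.6 CPM (-0.61, adjusted p = 0.13), and the axon guidance gene Slit2 overlapped (0.12, adjusted p = 0.67). The 40 cell cycle genes had no call by edgeR, DESeq2 or limma-voom and 1 unadjusted p under 0.05. Their median of 0.08 turned to -0.22 without Adm+/- LPS replicate 2 and to -0.05 without WT LPS replicate 9, and was 0.25 without WT LPS replicate 10. 

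**Figure D5:**
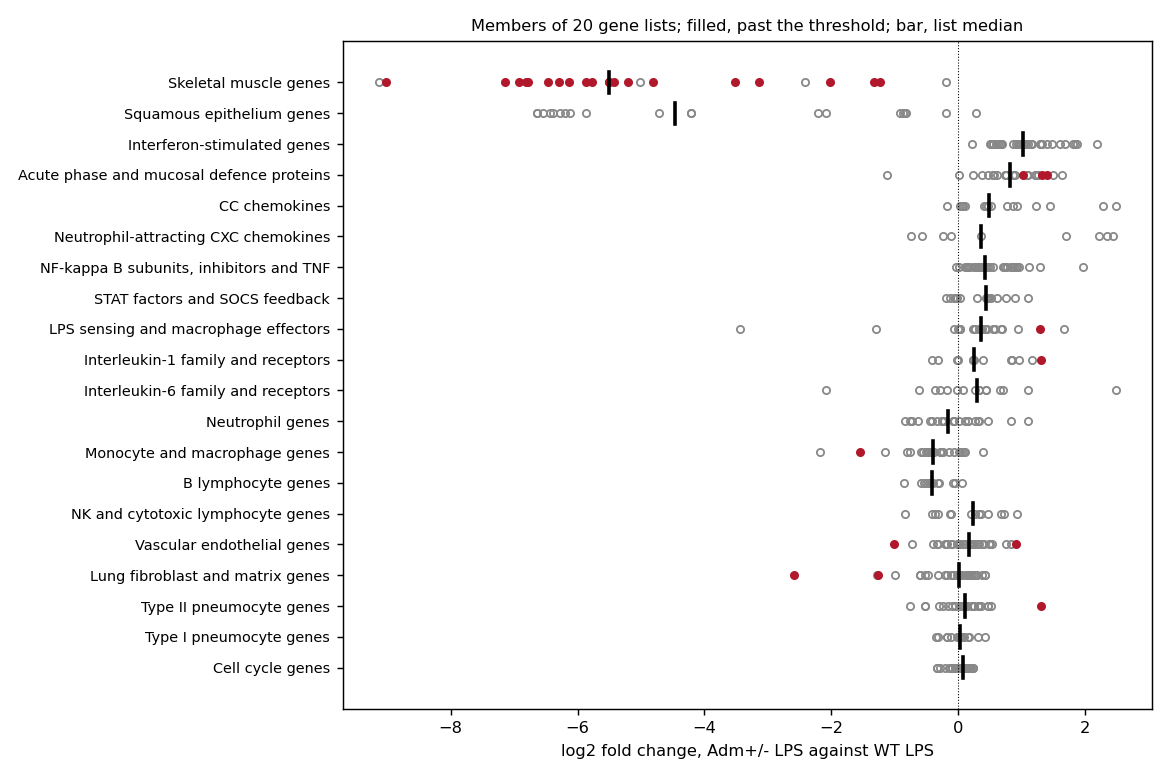
Log2 fold change, Adm+/- LPS against WT LPS, of each tested member of 20 gene lists; filled red points passed the threshold, open points did not, and black bars mark list medians. The muscle and squamous medians lie at -5.50 and -4.47, and the medians of the inflammatory lists drawn between 0.25 and 1.03. The macrophage and B lymphocyte medians lie at -0.40 and -0.42, and the endothelial, fibroblast and pneumocyte medians between 0.02 and 0.17.

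Of 20 tested squamous genes none passed by edgeR or limma-voom, 15 had an unadjusted p under 0.05, and DESeq2 called 12 and the edgeR fit of all 12 libraries 8 lower. The median log2 fold change was -4.47, but 8 of the 20 had under 10 counts in an Adm+/- LPS library and passed the filter on low counts through the other libraries. Only 1 gene lay wholly lower, against 12.8% of all genes. Krt4, a keratin of moist squamous lining, was at 19.2, 4.77 and 1.73 CPM in Adm+/- LPS and at 1377, 10.96 and 753.5 CPM in WT LPS, and Krt13, its partner, at 13.0, 2.41 and 0.353 CPM against 1024, 9.47 and 540.8 CPM. Only WT LPS replicates 9 and 11 were high. Without replicate 10, whose sum was close to those of the Adm+/- LPS libraries, 22 of 27 tested genes of the list were lower, in a fit that called 617 genes lower in all. That fit keeps only the WT libraries high in squamous RNA, so the direction was fixed by the choice and the count tests nothing. More members passed the filter on low counts there than in the reported fit.

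Whether the genotype difference depended on LPS was tested as an interaction over all 12 libraries. Of 15885 genes 23 (0.145%) passed, all with a genotype difference, Adm+/- minus WT, that was lower under LPS than under PBS, and 9 of them belong to the muscle list. Atp2a1, Neb and Myom3 had the smallest p. No inflammatory gene was among the 23, and DESeq2 gave 168 and limma-voom 1. Without the library labelled WT PBS replicate 4, which carried the Trim34b counts of an Adm+/- library, 6 genes passed. Leaving out another PBS library instead gave 5 to 27, so such a fall was not particular to replicate 4. In PBS lungs the genotype comparison gave 0 calls of 15885 genes by edgeR, with 344 (2.17%) at an unadjusted p under 0.05. DESeq2 and limma-voom also gave 0, with 399 (2.51%) and 234 (1.47%) at an unadjusted p under 0.05. Without WT PBS replicate 4, an alternative chosen after seeing the data, it gave 0 of 16116 by edgeR and 2 (0.0124%) by DESeq2, with 425 (2.64%) and 434 (2.69%) at an unadjusted p under 0.05.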

How the data were processed

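Lung RNA was sequenced by the authors from 1 rRNA-depleted, strand-keeping library per mouse. Reads were trimmed with Trim Galore, aligned to mm10 with HISAT2 and counted on Gencode genes with featureCounts, and the authors deposited raw counts, without normalization or filter. The Gencode release and the strand option are not given in the sources used here. Reads carried no molecular identifiers, and the floor of 3 counts used here allows for counting error only. Symbols turned into dates in the table (27) were restored from gene IDs. Positions came from Gencode M21.

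Protein-coding genes of the 6 LPS libraries that passed edgeR's filterByExpr (15690 of 21950) were scaled by TMM factors and fitted in edgeR 4.0.16 (glmQLFit, glmQLFTest, 4 residual degrees of freedom) in R 4.3.3. A gene passed when its p, adjusted after Benjamini and Hochberg, was under 0.05 and its log2 fold change exceeded 0.5 in size. The standard error is the fold change divided by the root of F. CPM values use the TMM scale of the 6 libraries, and those of PBS lungs, as well as the counts of groups standing apart, the scale of all 12. The interaction used all 12 libraries. Whether the 3 mice of a group came from separate litters is not stated, so p-values measure the spread between these mice. The scripts were tested on simulated data. The members, gene lists and motifs were chosen with earlier results of these data known.

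Genes named are the adrenomedullin system, genes the study names for these libraries, in each direction the 12 smallest p and 5 largest folds among non-overlapping calls averaging 1 CPM or more, and for each list up to 6 calls and the 2 most abundant members, apart from genes said to be chosen later. Some genes the rule names are not reported here. Alternatives were RLE factors, DESeq2 1.42.0, limma-voom (limma 3.58.1), glmTreat, other filters, all annotated genes, all 12 libraries and leaving out each library. Lists were given no test.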

Additional observations from a re-analysis of the deposited data

Results flagged for a closer look

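Genes that are not protein-coding were left out of the comparison above and are given from the fit of all annotated genes, where 10 of 6549 such genes were higher and 22 were lower in Adm+/- LPS by the same threshold. The 3 with the smallest p in each direction and a mean of at least 1 CPM follow. Gm35082, a long non-coding RNA at chr7:100675088-100677760, 9.95 Mb from Adm, had 56, 61 and 93 counts in Adm+/- LPS and 1, 3 and 1 counts in WT LPS, a fitted log2 fold change of 5.32 (edgeR adjusted p = 0.0015), which at so few WT counts depends on the prior count. Its counts were 21, 41 and 26 in Adm+/- PBS, 0 in WT PBS replicates 3 and 5, and 72 in the library labelled WT PBS replicate 4. Gm43984 (0.70) and Gm15345, antisense to March3 (1.25), were the other higher genes. H19, the imprinted non-coding RNA beside Igf2, was at 125.0, 119.4 and 106.4 CPM against 752.8, 403.4 and 397.3 CPM, and fell by 2.15 on the log2 scale. Igf2os, which overlaps Igf2 on the other strand, had a log2 fold change of -3.30, and 2610203C20Rik one of -1.12.

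In the test of whether the genotype difference under LPS differed from that under PBS, 8 genes named here passed. Their differences of the log2 fold change, LPS minus PBS, were -6.62 for Myh8, -5.53 for Mylpf, -5.44 for Atp2a1, -5.27 for Ryr1, -4.09 for Myom3, -3.68 for Neb, -3.12 for Zcchc5 and -2.94 for 1110002E22Rik. Each was higher in the 3 WT LPS libraries than in the 9 others. For Zcchc5, Myom3 and 1110002E22Rik the PBS lungs lay between the Adm+/- LPS and the WT LPS lungs. Zcchc5 was at 1.53 to 3.22 CPM in PBS lungs, at 0.484 to 0.747 CPM in Adm+/- LPS and at 4.85 to 6.70 CPM in WT LPS. The summed muscle list moved with them, and its part was not tested.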

How the results depend on the processing

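No paired analysis was possible because the 2 groups share no replicate number. The 245 calls became 945 with DESeq2 and 112 with glmTreat, the 37 higher genes 273 and 3, and the 208 lower genes 672 and 109. Leaving out 1 library gave 31 to 747 calls, 1 to 227 of them higher and 30 to 617 lower. The 23 interaction calls became 168 with DESeq2, 1 with limma-voom, 13 with glmTreat and 5 to 65 without 1 library. RLE factors, both other filters, no minimum fold, all annotated genes and all 12 libraries kept each count within 1.5 times. Of the 245 calls, 181 were also made by limma-voom, and 191 in the fit of all 12 libraries. Tnf changed sign, from 0.15 to -0.19, without WT LPS replicate 11, and ranged from -0.19 to 0.68 over the fits without 1 library. The cause was not tested. With 3 mice against 3, an exact permutation test of a single gene cannot go below a two-sided p of 0.1, so calls rest on the spread shared across genes. Total counts of at least 28244617 limit mainly genes with few counts, such as Il6 and Fgf23.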

Other observations

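The library labelled WT PBS replicate 4 had 77 counts of Trim34b, 72 of Gm35082, 35 of Gm26862 and 14 of the pseudogene Mrpl48-ps on chromosome 4, whereas the 5 other WT libraries had at most 11, 3, 4 and 1. The 6 Adm+/- libraries had at least 39, 21, 32 and 12 counts of these genes. Its Adm count was 146, the highest of the 6 PBS libraries, which ranged from 74 to 146. It also had 38.1 CPM of Saa3, against 0.835 to 1.61 CPM in the other PBS libraries, and 322.3 CPM of Stat3 against 140.1 to 171.1 CPM. The labels give no reason for these values, and the comparison under LPS does not use the library.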
